A study of Mus musculus with 10 samples.

Results

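This report describes 39 genes of fatty acid oxidation and ketone body formation in the livers of young and aged mice, chosen by name from a list of symbols. The rule applies no threshold on measured values, but the list was drawn up with earlier results of these data known. All 39 symbols were found among the 24537 in the deposited count table, and all 39 passed the filter on low counts that left 13909 genes for testing. They were grouped by where their proteins act: 9 genes of regulation and fatty acid entry, 20 mitochondrial, 8 peroxisomal and 2 ketone body genes.

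The samples were 10 whole livers of male mice, each sequenced as polyadenylated RNA. All mice, controls included, had received an adeno-associated virus. The knockout virus, AAV8-TBG-saCas9-U6-sgCd44, carries the Cas9 of Staphylococcus aureus under TBG, a hepatocyte promoter, so the edit is directed at hepatocytes while the RNA comes from every cell type of the liver. Its guides g2 and g4 target Cd44, which encodes a cell surface receptor for hyaluronan, and the control guide targets Rosa26, a locus in general use as a neutral site (genotype labelled Rosa26-KO). 3 young control livers were taken at 9 months after virus at 7 months, and 3 old control livers at 25 months after virus at 23 months. 4 old knockout livers, also at 25 months after virus at 23 months, received guide 4 (knockout livers 1 and 2) or guide 2 (knockout livers 3 and 4). Liver numbers only name a sample within its group. The labels do not say that the libraries of a group came from separate animals, so p-values measure the spread between these libraries.

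Fatty acid oxidation shortens acyl chains by a pair of carbons in each round of a spiral of dehydrogenation, hydration, dehydrogenation and thiolysis. Long chains are activated to acyl-CoA and cross into mitochondria as carnitine esters, while peroxisomes shorten very long and branched chains first. In fasting, hepatocytes turn much of the resulting acetyl-CoA into ketone bodies, which they export and cannot burn themselves, and the fatty acid receptor PPARA, paired with RXRA, raises the transcription of most genes of these routes.

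PPARA and RXRA bind a direct repeat of the half-site AGGTCA with 1 base between the copies, a sequence that other nuclear receptors of the liver also bind. RefSeq promoters (GRCm38.p6, 250 bases before to 50 bases after the start) were matched by symbol for 34 of the 39 genes. Allowing at most 2 mismatches in the 12 letters of the repeat, on either strand, 6 of the 34 (17.6%) held a match, beside 414 of 10682 tested genes with a promoter (3.88%) and 1190 of 27025 genes in the whole promoter table (4.4%). With at most 1 mismatch the count was 2 of 34 (5.88%) against 70 of 10682 (0.655%), and no promoter of the 34 held the repeat without a mismatch. Such a match is a description of letters, not a binding site. The stretches around 5 of the 6 matches are shown because they are the members whose promoters carry letters of this receptor element. They read 5′ to 3′ on the gene's strand and end before the first transcribed base, and capitals mark the 13 bases of the match.
Fabp1: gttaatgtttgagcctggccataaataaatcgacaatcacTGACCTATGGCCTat
Acot12: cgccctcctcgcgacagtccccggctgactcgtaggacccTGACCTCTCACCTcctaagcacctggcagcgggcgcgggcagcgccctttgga
Echs1: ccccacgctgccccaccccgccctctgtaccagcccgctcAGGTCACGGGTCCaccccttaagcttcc
Etfa: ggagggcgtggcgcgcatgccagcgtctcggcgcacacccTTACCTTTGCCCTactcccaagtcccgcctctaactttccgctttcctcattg
Acot4: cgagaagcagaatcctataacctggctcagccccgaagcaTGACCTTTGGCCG
The Fabp1 stretch is chr6:71199772-71199826 (plus strand) and the Acot12 stretch chr13:91741371-91741463 (plus strand), and both of their matches have 1 mismatch. The Echs1 stretch is chr7:140116477-140116544 (minus strand), the Etfa stretch chr9:55512268-55512360 (minus strand) and the Acot4 stretch chr12:84038326-84038378 (plus strand), each with 2 mismatches. The sixth match, AGGTGAAAGGTCG in Slc25a20 with 2 mismatches, begins 7 bases after the RefSeq start. Of these 6 genes, only Slc25a20 passed the test between old and young control livers described next. In the other pathway genes listed for this report, 6 of 62 promoters (9.68%) held a match with at most 2 mismatches, namely those of Acox2, Cat, Cd36, Creb3l3, Plin2 and Rxra.

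Total counts ranged from 15821198 to 21710228 per liver, and 3 counts, taken as the smallest amount detected, correspond to 0.138 to 0.19 CPM. Values per liver are counts scaled to library size (CPM) with trimmed mean of M values (TMM) factors. The library of old control liver 3 stood apart in its relation to transcript length, and its name lies outside the numbering run of the others. Over 13577 genes its deviation from the mean of the 10 livers correlated with transcript length at a Spearman rho of 0.308. The same measure was -0.11 to 0.058 in the other 9 livers. With GC content, the rho was -0.142, -0.129 and -0.076 in young livers 1 to 3. It was 0.234, 0.151 and -0.169 in old control livers 1 to 3 and 0.055, 0.129, -0.098 and 0.087 in knockout livers 1 to 4. Cd44 itself stood at 16.6, 11.15 and 10.1 CPM in the young livers, 14.2, 30.0 and 25.9 CPM in the old control livers and 18.9, 29.0, 17.6 and 13.1 CPM in the livers labelled knockout. The 3 groups overlapped, and the knockout difference was not past the threshold (log2 fold change -0.25 ± 0.30 SE, adjusted p = 0.896, edgeR), so RNA from whole liver did not by itself show the edit. The hepatocyte markers Alb, Apoa1, Ttr, Cps1, Cyp3a11, Hnf4a, Serpina1c, Fgb, Cyp2e1 and Tat were all detected, and together they summed to between 89800 and 143900 CPM per liver.

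The first comparison set the old against the young control livers. With age, 36 of the 39 genes had a lower fitted level and 3 (Slc27a1, Pdk4 and Acot12) a higher one. 10 of the 39 passed the test (edgeR's quasi-likelihood test with Benjamini-Hochberg adjustment over 13909 genes, adjusted p under 0.05), which is 25.6% beside 22.8% of all genes tested. Of the 39, 9 passed and fell, beside 8.66% of all genes tested, and 1 (Slc27a1) passed and rose, beside 14.1% of all genes tested. Of all 3172 genes that passed, 1205 fell and 1967 rose. The genes that fell were Acsl1, Slc27a2 and Acot1 of the entry set, Slc25a20, Cpt2, Eci1 and Decr1 of the mitochondrial set and Ehhadh and Pex11a of the peroxisomal set. In 18 of 39 genes (46.2%) every old control liver lay below every young liver, beside 18% of all genes tested. The median log2 fold change of the 39 genes was -0.376, beside 0.035 for all genes tested.

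The size of these differences depended on the scaling. TMM factors lay between 0.824 and 0.897 in the young livers and between 0.966 and 1.12 in the old ones. With scaling to total counts alone, the median of all genes moved to 0.342, 25 of the 39 genes still had a lower level with age, and 11 changed sign (Ppara, Mlycd, Cpt1a, Acadl, Hadh, Echs1, Etfa, Etfb, Acaa1a, Acat1 and Bdh1). Relative to the median of all genes, 36 of 39 were lower under TMM and under total-count scaling. Those scalings differ by nearly the same shift in every gene, so this count could hardly differ between them. After a correction for GC content and transcript length the count was also 36 of 39. Under total-count scaling 5 members passed (4 lower, 1 higher) and the calls over all genes split into 3872 higher and 354 lower, against 1967 and 1205 under TMM. After the GC and length correction 16 members passed, all lower, and the split over all genes was 1609 higher and 2259 lower. As a share of the raw counts, the 39 genes together took 1.192%, 1.182% and 1.255% in the young livers and 1.345%, 1.052% and 0.9674% in the old control livers, so the groups overlapped on that measure. Single livers also set how many members passed: 21 without old control liver 3 and 11 without old control liver 1. The number was 4 without young liver 1 and 3 without young liver 3. Slc25a20 alone passed without young liver 2 or without old control liver 2. The calls over all genes, 3172 with every liver, moved as well, to 5327 and 2839 without old control livers 3 and 1. They were 1690, 1549 and 396 without young livers 1, 3 and 2, and 1032 without old control liver 2.

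Markers of cell types moved in the same comparison. Of the 10 hepatocyte markers, 3 fell and none rose, with a median log2 fold change of -0.499, and their summed level ranged from 113600 to 143900 CPM in the young and from 89800 to 123000 CPM in the old control livers. Macrophage markers rose in 8 of 10, endothelial markers in 6 of 8, stellate cell markers in 5 of 8, T cell markers in 4 of 7 tested and B and plasma cell markers in 4 of 6 tested. Neutrophil markers rose in 4 of 4 tested, erythroid and megakaryocyte markers rose in 3 and fell in 1 of 6 tested, and none of 5 cholangiocyte markers or of 1 adipocyte marker tested passed. No marker in the table was at 0 in all 10 livers. Summed macrophage markers stood at 267.2 to 400.3 CPM in the young and 515 to 1851 CPM in the old control livers. Old control liver 2 had the highest sums of macrophage, T cell, B and plasma cell, neutrophil, endothelial and stellate cell markers of all 10 livers. In whole liver, fewer hepatocytes and less of an RNA per hepatocyte cannot be told apart, and the part of these shifts in the changes of the 39 genes was not tested.

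**Figure D1:**
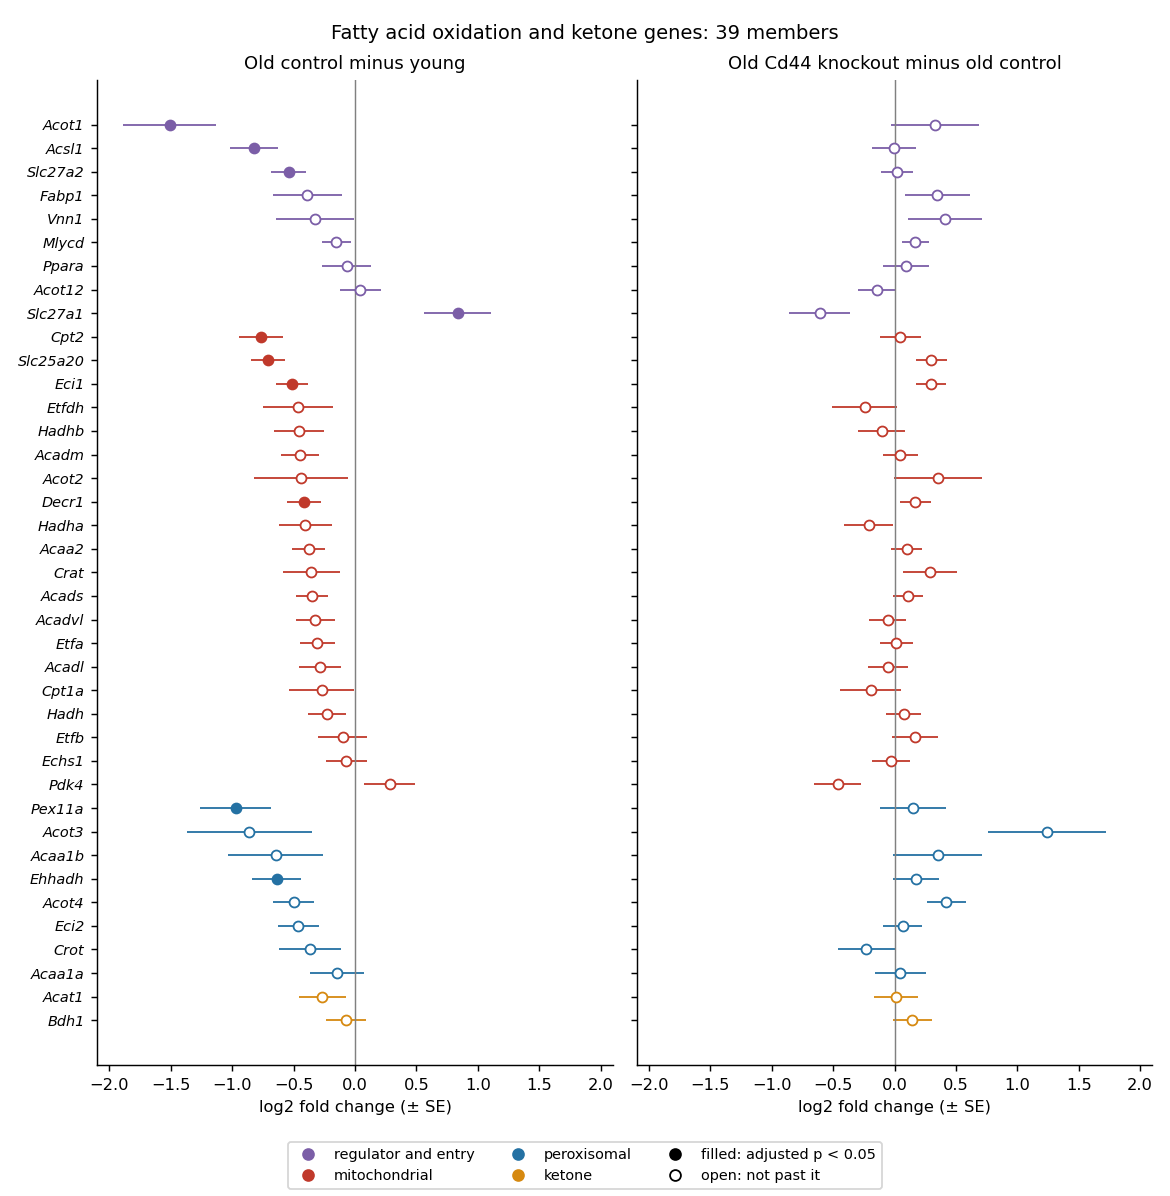
Log2 fold changes (x axis, with standard errors) of the 39 genes, ordered within their sets, for old control minus young livers (left) and old knockout minus old control livers (right), which share the old control livers. Filled points passed an adjusted p of 0.05: 10 genes on the left, none on the right; 36 of the 39 points on the left lie below 0 under TMM scaling, and 11 of those change sign under total-count scaling.

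Among the genes of regulation and entry, 3 of 9 fell and 1 rose with age, with a median log2 fold change of -0.329. This is 44.4% called, beside 22.8% of all genes tested (8.66% lower and 14.1% higher). Ppara, the receptor itself, had 219.8, 146 and 135 CPM in young livers 1 to 3, 167, 147 and 164 CPM in old control livers 1 to 3 and 183, 189, 179 and 129.8 CPM in knockout livers 1 to 4. The groups overlapped, young liver 1 was the highest of the 10 and knockout liver 4 the lowest. Its difference with age was within the spread (log2 fold change -0.067 ± 0.20 SE, adjusted p = 0.831).

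Acsl1, the main long-chain acyl-CoA synthetase of liver (chromosome 8, 46471037 to 46536051, plus strand, GRCm38), had 944, 941 and 1008 CPM in the young, 510.3, 472 and 652 CPM in the old control and 707, 523, 516 and 427 CPM in the knockout livers. All 7 old livers lay below all 3 young livers. The old control mean of 545 ± 94.8 CPM (SD, n = 3) was 1.77-fold lower than the young mean of 964 ± 37.4 CPM (SD, n = 3). The log2 fold change was -0.82 ± 0.19 SE (adjusted p = 0.0156), and 2 of 13 alternative analyses lost the call. Slc27a2, which imports fatty acids and activates very long chains (chromosome 2, 126552407 to 126588243, plus strand), had 1309, 1347 and 1262 CPM in the young, 951, 766 and 978 CPM in the old control and 943, 918.5, 969.6 and 818 CPM in the knockout livers. Again every old liver was below every young one, and old control liver 2 was the lowest. The change with age was 1.45-fold downwards (log2 fold change -0.54 ± 0.14 SE, adjusted p = 0.0237). The call for Slc27a2 was lost in 6 of 13 alternative analyses, with adjusted p up to 0.165.

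Acot1, a cytosolic thioesterase that splits acyl-CoA back into fatty acid and CoA (chromosome 12, 84009490 to 84018371, plus strand), showed the largest fall of the 39 genes. Its level was 23.25, 22.6 and 30.7 CPM in the young, 9.24, 10.7 and 7.01 CPM in the old control and 10.98, 19.0, 10.2 and 4.67 CPM in the knockout livers. Knockout liver 2 came nearest to the young range and knockout liver 4 was the lowest of all, and no old liver reached a young one. The old control mean of 8.97 ± 1.84 CPM (SD, n = 3) was 2.84-fold below the young mean of 25.5 ± 4.51 CPM (SD, n = 3). This is a log2 fold change of -1.51 ± 0.38 SE (adjusted p = 0.0203), and 3 of 13 alternative analyses lost the call. Of the windows of 75 bases in the transcript used for Acot1, 26.4% also occur in other genes, 19.7% in Acot2, so reads of these neighbours may be split between them.

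Slc27a1, another fatty acid transporter, best known from muscle and fat (chromosome 8, 71568882 to 71587302, plus strand), was the 1 member that rose. It had 5.14, 4.62 and 5.70 CPM in the young, 10.9, 10.3 and 6.44 CPM in the old control and 4.07, 8.07, 6.735 and 5.135 CPM in the knockout livers. The old control livers lay above the young ones, narrowly for old control liver 3, and the knockout livers spanned both groups. Its change with age was 1.78-fold upwards (log2 fold change 0.835 ± 0.275 SE, adjusted p = 0.0492). The call rested on a thin margin and was lost in 10 of the 13 alternative analyses, with adjusted p up to 0.157.

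The other 4 genes of this set did not pass the test with age. Fabp1, the liver fatty acid-binding protein, had the highest level of the 39 genes per length, at 6653 ± 558 CPM per kilobase of transcript in the young livers (SD, n = 3). In CPM it stood at 4090, 2617 and 1727 in the old control livers, where liver 1 was above the young range of 3378 to 3995 CPM and liver 3 far below it. Mlycd, which removes the malonyl-CoA that blocks carnitine transfer, Vnn1, a pantetheinase and a well known target of PPARA, and Acot12, an acetyl-CoA hydrolase of the cytosol, had log2 fold changes of -0.15, -0.33 and 0.044.

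**Figure D2:**
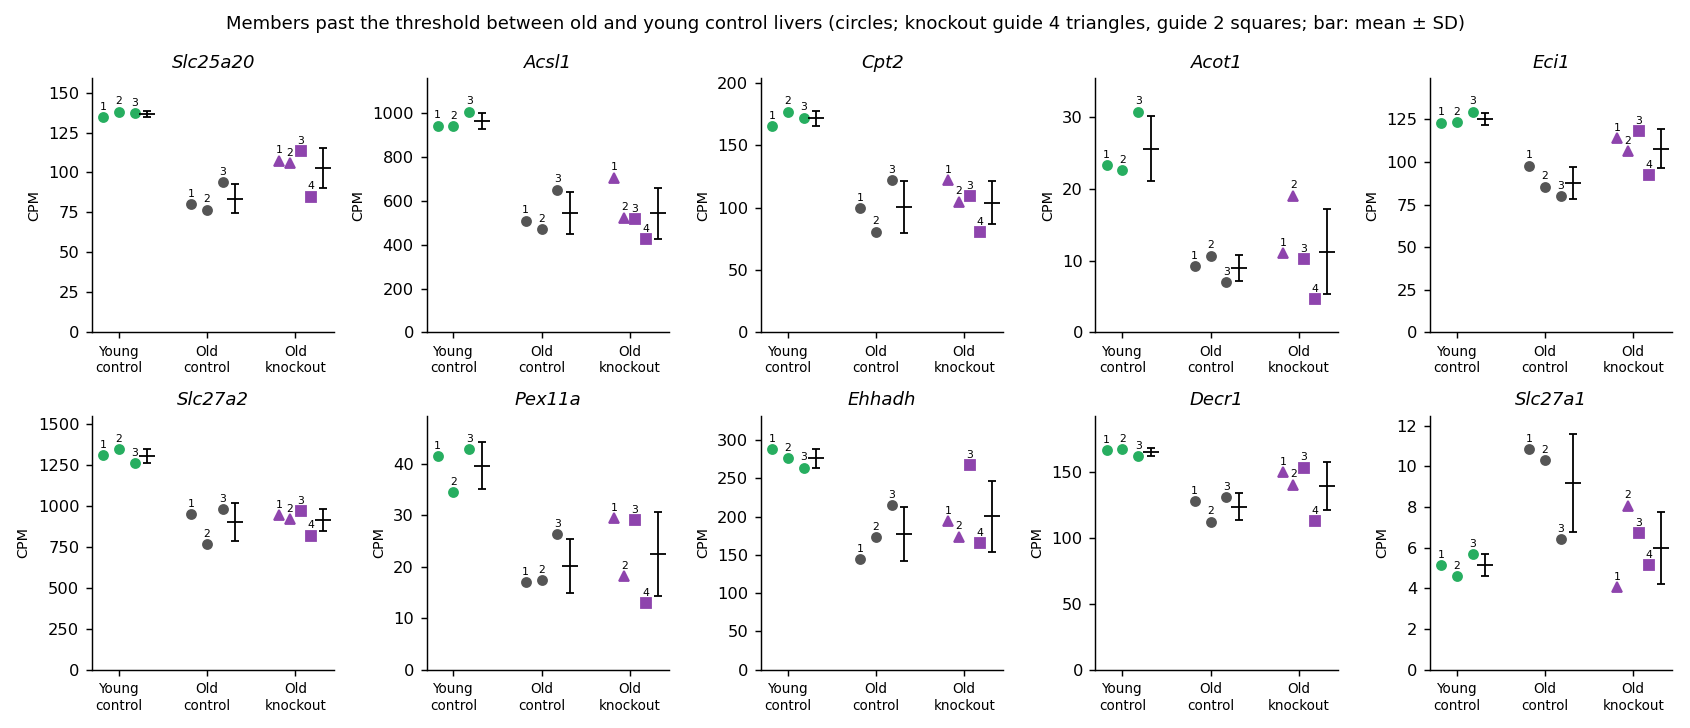
CPM (y axis, from 0) of the 10 genes past the threshold between old and young control livers, 1 point per liver numbered within its group, with mean ± SD beside each group; triangles are knockout livers with guide 4 and squares those with guide 2. In 9 panels all old control points lie below all young points, and for Slc27a1 they lie higher.

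The carnitine shuttle carries long chains into mitochondria, and the steps after its first enzyme fell together with age. Cpt1a, which makes acylcarnitine at the outer membrane and is the step that malonyl-CoA controls, had 405, 322 and 313 CPM in the young, 212, 233 and 416 CPM in the old control and 279, 272, 280.5 and 172 CPM in the knockout livers. Old control liver 3 was the highest of the 10, while the other 6 old livers were below the young range, so that the control groups overlapped. The difference with age was not past the threshold (log2 fold change -0.27 ± 0.27 SE, adjusted p = 0.478) and changed sign under total-count scaling.

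Slc25a20, the translocase that exchanges acylcarnitine for carnitine across the inner membrane (chromosome 9, 108662088 to 108684641, plus strand), had 135, 138 and 137 CPM in the young, 80.3, 76.7 and 94.1 CPM in the old control and 107, 106, 113.5 and 85.0 CPM in the knockout livers. The 3 young livers lay close together and above all old livers, and 3 of the 4 knockout livers were above the old control range. The old control mean of 83.7 ± 9.19 CPM (SD, n = 3) was 1.63-fold lower than the young mean of 137 ± 1.73 CPM (SD, n = 3), with a log2 fold change of -0.71 ± 0.14 SE (adjusted p = 0.00981). It was the 1 member that passed in all 13 alternative analyses, with log2 fold changes from -0.804 to -0.408 and adjusted p up to 0.0489. Cpt2, which returns the chain to CoA inside the inner membrane (chromosome 4, 107903981 to 107923610, minus strand), stood at 165, 177 and 172 CPM in the young, 99.5, 80.8 and 122 CPM in the old control and 122, 105, 109 and 80.5 CPM in the knockout livers. All old livers lay below all young ones. Its fall with age was 1.70-fold (log2 fold change -0.77 ± 0.18 SE, adjusted p = 0.0157), and 2 of 13 alternatives lost the call. Crat, the carnitine acyltransferase for short chains, had a log2 fold change of -0.36 ± 0.23 SE (adjusted p = 0.285), with old control liver 1 above 2 of the 3 young livers.

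The enzymes of the mitochondrial spiral were lower with age in size but mostly not past the test. The 4 acyl-CoA dehydrogenases, which act on very long (Acadvl), long (Acadl), medium (Acadm) and short chains (Acads), had log2 fold changes of -0.32, -0.29, -0.445 and -0.35. In each of them all old control livers lay below all young livers, and none passed (adjusted p = 0.160, 0.241, 0.0590 and 0.0748). Acadm, whose human counterpart is the gene of medium-chain dehydrogenase deficiency, had a mean of 366 ± 14.3 CPM in the young (SD, n = 3) and 269 ± 45.25 CPM in the old control livers (SD, n = 3). Acadl changed sign under total-count scaling and the other 3 did not.

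Hadha and Hadhb, which encode the 2 subunits of the trifunctional protein and lie head to head on chromosome 5 (30118304 to 30155162, minus strand, and 30155248 to 30184593, plus strand), moved in parallel. Hadha had 345, 332 and 328 CPM in the young and 191, 231 and 338 CPM in the old control livers, and Hadhb had 154, 151 and 149 CPM and 84.15, 99.96 and 147 CPM. In both, old control liver 3 stood close to the young livers and the other 2 well below. Their log2 fold changes of -0.405 and -0.455 did not pass (adjusted p = 0.193 and 0.125). The Hadhb count is uncertain, because 57.2% of its 75-base windows also occur in Gm13910.

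Eci1 and Decr1, the isomerase and the reductase that let unsaturated chains enter the spiral, both fell. Eci1 (chromosome 17, 24426641 to 24439348, plus strand) had 123, 123 and 129.6 CPM in the young, 97.9, 85.5 and 79.75 CPM in the old control and 114, 107, 118 and 92.4 CPM in the knockout livers. The knockout livers lay between the other groups and overlapped the old controls only through liver 4. With age it fell 1.43-fold (log2 fold change -0.515 ± 0.13 SE, adjusted p = 0.0208). The call for Eci1 was lost in 6 of 13 alternatives, with adjusted p up to 0.300. Decr1 (chromosome 4, 15917240 to 15945507, minus strand) stood at 166, 167 and 161 CPM in the young, 128, 112 and 130.5 CPM in the old control and 149.6, 140.0, 153 and 113 CPM in the knockout livers. All 7 old livers were below the young range. Its fall of 1.34-fold (log2 fold change -0.42 ± 0.14 SE, adjusted p = 0.0492) was close to the threshold, and 9 of 13 alternatives lost it.

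Of the other mitochondrial genes, Acaa2 (the thiolase), Hadh and Echs1 (the matrix dehydrogenase and hydratase) and Etfa, Etfb and Etfdh (which pass electrons on to ubiquinone) had log2 fold changes between -0.47 (Etfdh) and -0.07 (Echs1), and none passed. Under total-count scaling Hadh, Echs1, Etfa and Etfb changed sign. The Etfb count is uncertain, because 66.3% of its windows also occur in Gm45233. Acot2, the mitochondrial thioesterase, had 6.06, 6.46 and 6.27 CPM in the young, 3.93, 6.29 and 3.625 CPM in the old control and 7.61, 8.20, 5.42 and 2.33 CPM in the knockout livers, and old control liver 2 lay within the young range. Pdk4, a kinase that shuts pyruvate dehydrogenase when fat is burned, had 6.06, 8.84 and 8.43 CPM in the young, 10.7, 9.80 and 7.87 CPM in the old control and 7.03, 5.98, 8.43 and 6.01 CPM in the knockout livers. The groups overlapped, and Pdk4 was 1 of the 3 genes with a higher fitted level in old controls (log2 fold change 0.28 ± 0.21 SE, adjusted p = 0.335).

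All 8 peroxisomal genes had a lower fitted level with age, with a median log2 fold change of -0.569. Of the 8, 2 passed, both lower (25%, beside 22.8% of all genes tested in either direction and 8.66% lower). Acaa1a changed sign under total-count scaling. Ehhadh, the bifunctional enzyme of the peroxisomal spiral (chromosome 16, 21761287 to 21787807, minus strand), stood at 288, 276 and 264 CPM in the young, 145, 173 and 215 CPM in the old control and 194, 174, 267 and 165.5 CPM in the knockout livers. Old control livers were all below the young range, and knockout liver 3 was inside it. The old control mean of 177 ± 35.4 CPM (SD, n = 3) was 1.56-fold below the young mean of 276 ± 12.3 CPM (SD, n = 3). This is a log2 fold change of -0.64 ± 0.20 SE (adjusted p = 0.0406). The call for Ehhadh was lost in 7 of 13 alternative analyses, with adjusted p up to 0.150. Pex11a, which promotes the division of peroxisomes (chromosome 7, 79735957 to 79743131, minus strand), stood at 41.55, 34.6 and 42.9 CPM in the young, 17.0, 17.4 and 26.3 CPM in the old control and 29.5, 18.2, 29.1 and 12.95 CPM in the knockout livers. No old liver reached the young range. It fell 1.96-fold with age (log2 fold change -0.97 ± 0.29 SE, adjusted p = 0.0345), and 6 of 13 alternatives lost the call.

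The 2 peroxisomal thiolase genes of the mouse, Acaa1a and Acaa1b, share 27.3% and 28.5% of their 75-base windows with each other, so their counts are uncertain. Acaa1b had 1115, 952.5 and 1284 CPM in the young, 1264, 573 and 303 CPM in the old control and 966, 965, 963.5 and 744 CPM in the knockout livers. Old control livers 1 and 3 differed by more than the whole young range, and Acaa1a, at 237, 217 and 259 CPM in the young, 303, 181 and 158.5 CPM in the old control and 231, 241, 228.5 and 184 CPM in the knockout livers, had the same order of old control livers. Neither passed with age (log2 fold change -0.15 ± 0.22 SE, adjusted p = 0.646 for Acaa1a, and -0.65 ± 0.39 SE, adjusted p = 0.242 for Acaa1b).

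Acot3 and Acot4, peroxisomal thioesterases, lie beside Acot1 and Acot2 on chromosome 12, where the 4 genes stand between 83987861 and 84060402. Acot4 had 17.3, 19.5 and 23.2 CPM in the young, 14.4, 12.7 and 15.4 CPM in the old control and 18.5, 21.25, 21.05 and 14.8 CPM in the knockout livers. The old control livers were all below the young ones and the knockout livers overlapped both groups, and the change with age just missed the threshold (log2 fold change -0.50 ± 0.17 SE, adjusted p = 0.0528). Acot3, at 3.55, 4.88 and 10.8 CPM in the young, 4.325, 3.83 and 2.43 CPM in the old control and 6.915, 14.1, 8.855 and 3.385 CPM in the knockout livers, ranged widely inside each group. Of its windows 16.5% occur in other genes, and its change with age did not pass (log2 fold change -0.86 ± 0.51 SE, adjusted p = 0.235). Eci2, an isomerase, and Crot, which makes octanoylcarnitine for export from peroxisomes, had log2 fold changes of -0.46 and -0.37 and did not pass.

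The 2 ketone members did not pass with age, and both changed sign under total-count scaling. Acat1, the mitochondrial thiolase that joins acetyl-CoA units, had 338.5, 331 and 319 CPM in the young, 222.5, 252 and 346 CPM in the old control and 312, 253, 319 and 219.5 CPM in the knockout livers. Bdh1, which reduces acetoacetate to beta-hydroxybutyrate, had 181, 189.6 and 179 CPM in the young, 144, 172 and 206 CPM in the old control and 229, 202, 178 and 160.5 CPM in the knockout livers. In both genes old control liver 3 was above the young range, old control liver 1 was below it, and the groups overlapped (log2 fold change -0.27 ± 0.19 SE, adjusted p = 0.322 for Acat1, and -0.074 ± 0.17 SE, adjusted p = 0.772 for Bdh1).

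Across the sets, the median log2 fold change with age was -0.366 in the mitochondrial genes (4 of 20 passed, 20%), -0.569 in the peroxisomal genes (2 of 8 passed, 25%) and -0.171 in the ketone genes (0 of 2 passed, none with an unadjusted p under 0.05). The ranges overlapped, from -0.766 to 0.284, from -0.973 to -0.15 and from -0.268 to -0.074, and no test of the difference between sets was made. The mitochondrial and peroxisomal shares lie near the 22.8% of all genes that passed in either direction. All calls in these sets were lower, beside 8.66% of all genes called lower, and none was higher, beside 14.1%. In the regulator and entry set 4 of 9 passed (44.4%). In the mean centred log2 CPM per liver, mitochondrial genes stood at 0.241, 0.274 and 0.225 in the young livers and at -0.183, -0.188 and -0.005 in the old controls. Peroxisomal genes stood at 0.218, 0.237 and 0.47 in the young livers and at -0.137, -0.437 and -0.32 in the old controls. For both sets the old control values lay below the young ones, whereas the 2 ketone genes overlapped because of old control liver 3, at 0.222.

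**Figure D3:**
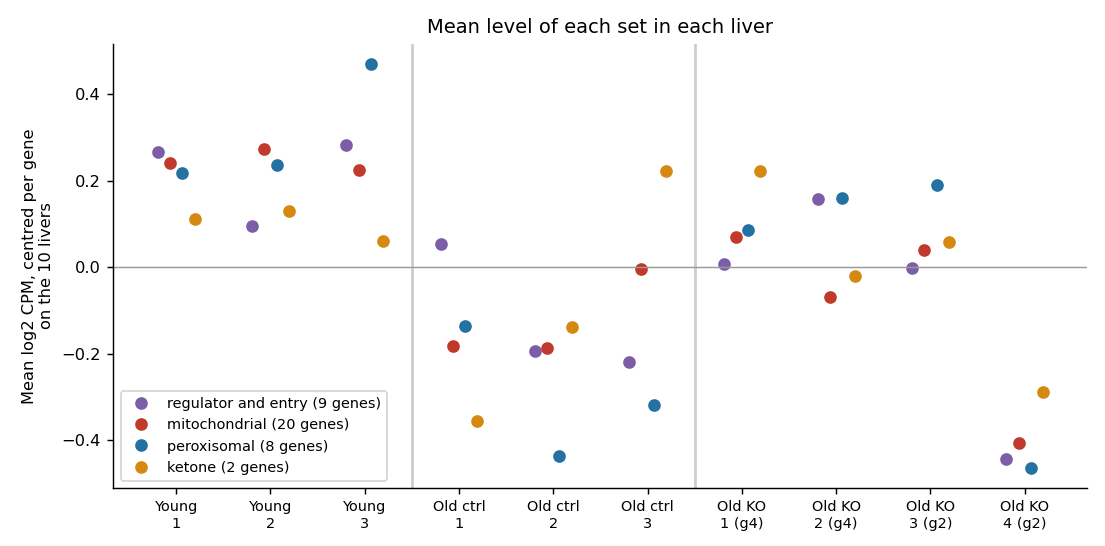
Mean of log2 CPM over the genes of each set, centred per gene on the 10 livers (y axis), for each liver (x axis). Young livers lie above 0 in every set; old control livers lie below 0 except for regulator and entry genes in liver 1 and ketone genes in liver 3, and knockout liver 4 is the lowest knockout liver in every set.

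Genes of the same pathways outside the 39 were counted on lists named for this report. Among 6 ketone body genes, 2 fell and 1 rose with age (50% called, beside 22.8% of all genes tested).

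The monocarboxylate carriers Slc16a1 and Slc16a6, through which ketone bodies leave the cell, fell with age. Slc16a1 went from a mean of 108 ± 31.99 CPM in the young to 55.6 ± 10.4 CPM in the old control livers (SD, n = 3 each; log2 fold change -0.95 ± 0.21 SE, adjusted p = 0.0131). Slc16a6 went from 31.5 ± 7.62 CPM to 12.5 ± 1.345 CPM (SD, n = 3 each; log2 fold change -1.33 ± 0.24 SE, adjusted p = 0.00908). Oxct1, the enzyme of ketone use that hepatocytes barely express, rose (log2 fold change 1.47 ± 0.40 SE, adjusted p = 0.0267). It stood at 2.94, 2.70 and 4.56 CPM in the young and 5.90, 16.7 and 5.77 CPM in the old control livers, so liver 2, the one with the highest macrophage and neutrophil marker sums, was the highest, and the part of those cells was not tested. Bdh2, Slc16a7 and Sirt3 did not pass. Slc16a6 passed in all 13 alternatives, while 3 lost the call for Slc16a1 and 5 that for Oxct1.

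**Figure D4:**
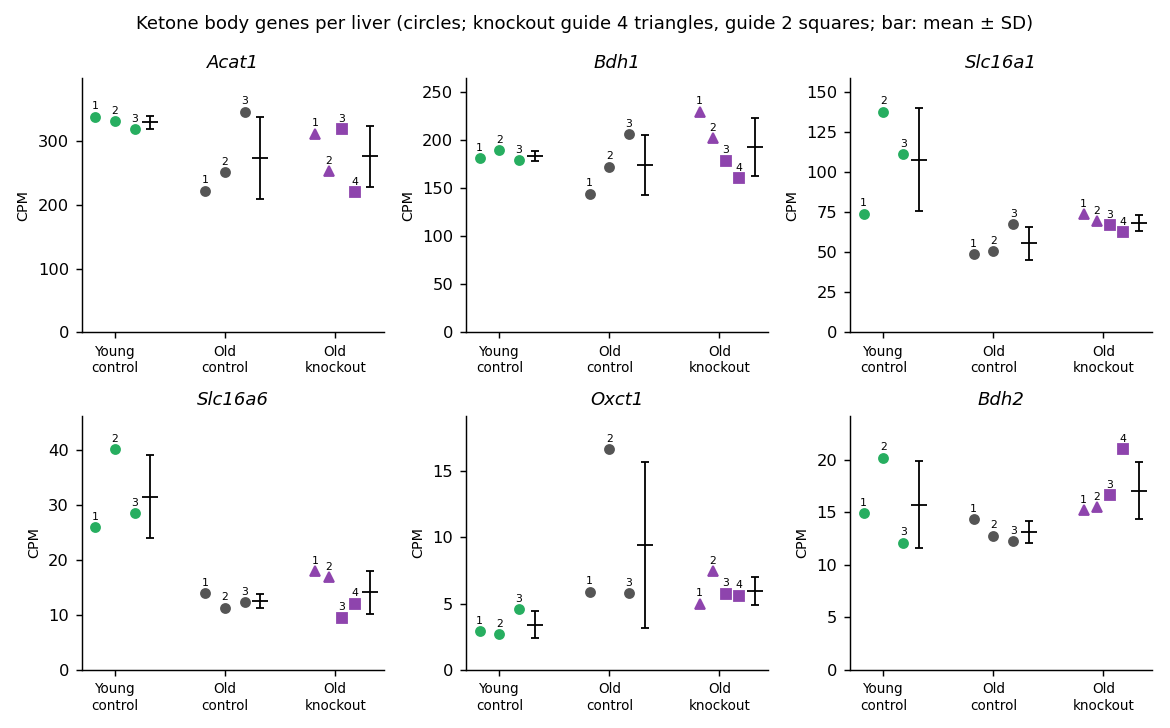
CPM (y axis, from 0) of 6 ketone body genes per liver, numbered within each group, with mean ± SD beside it; triangles are knockout livers with guide 4 and squares those with guide 2. Acat1 and Bdh1 belong to the 39 genes and, like Bdh2, overlap between young and old control livers, while in Slc16a1 and Slc16a6 the old control livers lie below the young ones and in Oxct1 above them.

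Of 26 further peroxisomal genes, 5 fell and 1 rose with age, beside 8.66% of all genes called lower and 14.1% called higher. In either direction, their share of 23.1% is close to the 22.8% of all genes tested. The median log2 fold change of the 26 was -0.261, less negative than that of the 8 members. Cat (catalase), Scp2 (sterol carrier protein and thiolase), Nudt7 (a CoA hydrolase), Pex13 (a peroxisomal import factor) and Phyh (the first enzyme of phytanic acid breakdown) fell by 0.78, 0.64, 0.77, 0.64 and 0.44 on the log2 scale (adjusted p = 0.0197, 0.0293, 0.0281, 0.00798 and 0.0497). Of 13 alternative analyses, Pex13 passed in all, while Phyh lost the call in 10, Scp2 and Nudt7 in 7 each and Cat in 3. Hsd17b4, the other bifunctional enzyme, missed the threshold (log2 fold change -0.59 ± 0.21 SE, adjusted p = 0.0604).

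The peroxisomal gene that rose was Abcd2, a transporter of very long chain acyl-CoA into peroxisomes. It had 9.91, 3.43 and 4.435 CPM in the young, 31.75, 27.5 and 17.1 CPM in the old control and 16.15, 19.15, 22.9 and 23.05 CPM in the knockout livers, and its lowest old liver was above its highest young one. It rose 4.28-fold (log2 fold change 2.097 ± 0.36 SE, adjusted p = 0.00808) and passed in all 13 alternatives.

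Of 23 further mitochondrial genes 22 were tested, of which 3 fell and 2 rose (22.7%, close to the 22.8% of all genes tested), with a median of 0.067. Acsm3, Acsl4 and Hsd17b10, which activate medium and long chains and oxidise short ones, fell by 0.69, 0.90 and 0.49 on the log2 scale (adjusted p = 0.0198, 0.0203 and 0.0250). Acss1, a mitochondrial acetyl-CoA synthetase, and Ucp2, an inner membrane carrier, rose by 1.74 and 1.14 (adjusted p = 0.0347 and 0.0223), Acss1 from a mean of only 0.4215 ± 0.191 CPM (SD, n = 3). The calls were lost in 7 of 13 alternatives for Acss1, 6 for Hsd17b10, 5 each for Acsm3 and Ucp2 and 2 for Acsl4.

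Among 25 regulators and genes linked to PPARA, 5 fell and 3 rose with age (32%, beside 22.8% of all genes tested). Angptl4, a lipase inhibitor and a standard PPARA target, had 164, 227 and 152.5 CPM in the young, 59.2, 47.3 and 57.8 CPM in the old control and 64.15, 64.0, 98.6 and 40.6 CPM in the knockout livers. No old liver reached the young range, and the fall was 3.31-fold (log2 fold change -1.73 ± 0.28 SE, adjusted p = 0.00772), past the threshold in all 13 alternatives. Plin2 (the lipid droplet coat), Abhd5 (the activator of fat lipolysis), Lpin1 (a phosphatidate phosphatase and coactivator) and Prkaa2 (a catalytic subunit of AMP-activated kinase) fell by 1.29, 1.09, 0.99 and 0.68 on the log2 scale (adjusted p = 0.0129, 0.0101, 0.0152 and 0.0133). Ppargc1a, a coactivator of mitochondrial genes, rose from 3.71 ± 0.656 to 7.145 ± 1.905 CPM (SD, n = 3 each; adjusted p = 0.0269), Hmgcs1 of cholesterol synthesis by 0.92 and Txnip by 0.83 on the log2 scale (adjusted p = 0.0167 and 0.0311). Of 13 alternatives, 5 lost the call for Ppargc1a and for Txnip, 3 for Hmgcs1, 2 for Plin2 and 1 each for Abhd5, Lpin1 and Prkaa2. Rxra, the partner of PPARA, had 487, 513 and 501 CPM in the young and 267, 346 and 593 CPM in the old control livers and did not pass (log2 fold change -0.315 ± 0.24 SE, adjusted p = 0.351).

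The second comparison asked whether knockout of Cd44 in hepatocytes shifted these genes within old livers. No member passed, and neither did any of the 13909 genes (0%, smallest adjusted p = 0.744, edgeR); limma's voom also called none, and DESeq2 called 8 genes, none of them a member. At an unadjusted p under 0.05 there were 916 genes (6.59%) and 6 members (15.4%), 4 higher and 2 lower in knockout livers. 27 of the 39 members had a higher fitted level, with a median log2 fold change of 0.073 beside -0.024 for all genes, and in no member did the groups separate, beside 2.84% of all genes with the knockout livers above and 3.26% with them below.

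The 6 members with the smallest p were Acot4, Acot3, Slc27a1, Eci1, Pdk4 and Slc25a20. Acot3 had the largest fitted difference (log2 fold change 1.24 ± 0.48 SE, unadjusted p = 0.0248, adjusted p = 0.744), and its knockout liver 4 lay within the old control range. Acot4, Slc25a20 and Eci1 stood 0.42, 0.30 and 0.30 higher on the log2 scale, and Slc27a1 and Pdk4 had log2 fold changes of -0.61 and -0.46. This comparison and that with age share the old control livers, so a high or low value in those 3 livers enters both with opposite sign. Ppara and Cpt1a had log2 fold changes of 0.096 ± 0.19 SE and -0.195 ± 0.25 SE between knockout and old control livers. By set, the medians were 0.046 for mitochondrial, 0.163 for peroxisomal, 0.078 for ketone and 0.096 for regulator and entry genes. No marker of any cell type list passed between knockout and old control livers, but several lists lay lower as a whole. The median log2 fold change was -3.314 for 4 neutrophil, -1.012 for 10 macrophage, -0.527 for 6 erythroid and megakaryocyte, -0.483 for 8 endothelial and -0.386 for 8 stellate cell markers, against -0.047 for hepatocyte, 0.078 for T cell and 0.497 for B and plasma cell markers. Summed endothelial markers stood at 227.8 to 281.8 CPM in the knockout and 335.9 to 372.5 CPM in the old control livers, and summed stellate cell markers at 275.4 to 316.9 CPM and 333.7 to 490.6 CPM, in both without overlap. Macrophage sums (450.2 to 897.6 CPM and 514.8 to 1851 CPM) and neutrophil sums (7.631 to 23.04 CPM and 13.72 to 300.1 CPM) overlapped, and hepatocyte sums of 98200 to 100500 CPM in the knockout livers were inside the old control range. The part of these shifts in the differences of the 39 genes was not tested.

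The knockout livers were also compared with the young livers, which the comparison with age uses too. 4 of 39 members passed (10.3%, beside 11.6% of all genes tested). No member rose, beside 6.64% of all genes tested, and all 4 fell (10.3% of the 39, beside 4.97% of all genes tested). These were Acot1 (log2 fold change -1.18 ± 0.345 SE, adjusted p = 0.0492), Acsl1 (-0.83 ± 0.18 SE, adjusted p = 0.0225), Cpt2 (-0.72 ± 0.17 SE, adjusted p = 0.0270) and Slc27a2 (-0.52 ± 0.13 SE, adjusted p = 0.0343). 32 of 39 had a lower fitted level (16 of 39 under total-count scaling), with a median of -0.256 beside 0.026 for all genes, and in 18 of 39 (46.2%) all knockout livers lay below all young livers, beside 18.8% of all genes. Of the pathway genes, 9 passed, beside 11.6% of all genes tested. By list these were 2 of 6 ketone body genes (33.3%) and 1 of 22 mitochondrial genes (4.55%). The others were 3 of 26 peroxisomal genes (11.5%) and 3 of 25 regulators and genes linked to PPARA (12%). Cat (-0.73), Nudt7 (-0.68), Acsm3 (-0.60), Slc16a1 (-0.66), Slc16a6 (-1.16), Angptl4 (-1.44), Plin2 (-0.93) and Lpin1 (-0.97) fell on the log2 scale (adjusted p = 0.0319, 0.0484, 0.0366, 0.0489, 0.0168, 0.0130, 0.0412 and 0.0236), and Abcd2 (1.77) rose (adjusted p = 0.0168). Of 16 alternatives, 11 lost the call for Nudt7 and for Slc16a1, 10 for Plin2, 9 for Cat and for Acsm3, 7 for Lpin1, 4 for Slc16a6, 3 for Abcd2 and 2 for Angptl4. The member calls were lost when knockout liver 3 or 4, or any young liver, was left out: then none passed. Without knockout liver 2, 1 member passed, and without knockout liver 1, 4 did. The calls over all genes, 1614 with every liver, were 1652, 394, 326 and 294 without knockout livers 1 to 4. They were 423, 56 and 184 without young livers 1 to 3. In the same comparison 4 of 10 hepatocyte markers fell (median log2 fold change -0.643), and their sums of 98200 to 100500 CPM in the knockout livers lay below the young range of 113600 to 143900 CPM. Markers rose in 6 of 7 tested for T cells, 4 of 6 for B and plasma cells, 2 of 8 each for endothelium and stellate cells and 1 of 10 for macrophages, 1 of 6 erythroid and megakaryocyte markers fell, and no neutrophil, cholangiocyte or adipocyte marker tested passed. The part of these shifts was not tested here either. Over all genes the calls split into 923 higher and 691 lower, against 3332 and 253 under total-count scaling and 910 and 1539 after the GC and length correction.

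The 2 Cd44 guides were compared with 2 livers each. No member passed, beside 3 of 13909 genes (0.0216%, all higher with guide 2; DESeq2 called 73 genes, none of them a member, and voom 3), and 3 members had an unadjusted p under 0.05 (7.69%, beside 4.34% of all genes), namely Acadl, Acot2 and Acot1, all lower with guide 2. 34 of 39 members had a lower fitted level with guide 2, with a median log2 fold change of -0.148 beside -0.003 for all genes. In 12 of 39 (30.8%) both guide 2 livers lay below both guide 4 livers, beside 18.1% of all genes with guide 2 below and 20.4% with it above. Knockout liver 4 stood low in most members: it was the lowest knockout liver for 33 of the 39 genes and the lowest of all 10 livers for 18, while knockout liver 3, with the same guide, was the lowest knockout liver for 2. For 36 of 39 genes knockout liver 4 was below the young range, beside 23 to 26 genes in the other knockout livers. Its library was the shallowest, at 15821198 counts, its summed hepatocyte markers of 99390 CPM lay within the range of the other knockout livers, and the part of depth was not tested.

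The spread among old control livers was itself large in these genes. Old control liver 3 was higher than both other old controls for 23 of 39 genes and lower for 12. Relative to the mean log2 CPM of the other 2, it stood higher by 0.945 for Etfdh, 0.919 for Crot, 0.904 for Cpt1a and 0.685 for Hadha, and it had values of -1.49 for Acaa1b, -0.922 for Fabp1, -0.718 for Acot3 and -0.713 for Crat. It lay above the young range for 6 genes, within it for 7 and below it for 26, beside 27 and 33 genes below in old control livers 1 and 2. Over the 39 genes, its difference from the mean of old control livers 1 and 2 had a Spearman rho of 0.276 with transcript length. With GC content the rho was -0.387, and both are given as a description across genes of 1 library. Without old control liver 3, 21 of 39 members passed with age (20 lower, 1 higher). The calls over all genes rose as well, from 3172 to 5327 (2932 higher, 2395 lower).

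**Figure D5:**
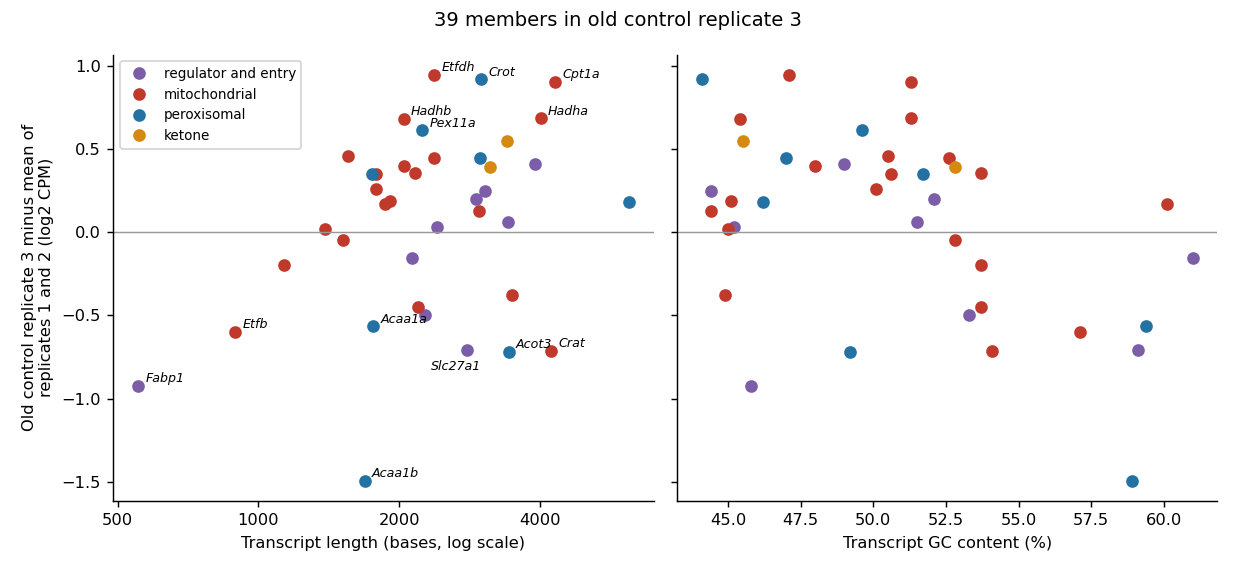
Difference in log2 CPM between old control liver 3 and the mean of old control livers 1 and 2 (y axis) for the 39 genes, against transcript length (left, log scale) and GC content (right). Points span -1.49 (Acaa1b) to 0.945 (Etfdh), and the 2 genes with the shortest transcripts, Fabp1 and Etfb, lie below 0.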

How the data were processed

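The values used are counts from the deposited table, in which the authors give unnormalized whole read numbers for each symbol in each liver. Per the labels' protocols, polyadenylated RNA was sequenced as paired reads. The submitters' processing notes name FastQC 0.11.8, Trim Galore 0.4.4, STAR 2.5.3a, HOMER and the build mm10, with no role or order, and the use of strand is not given in the sources used here, so overlapping and antisense genes cannot be told apart. Counting error alone is covered by the smallest amount of 3 counts.

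The counts were tested with edgeR 4.0.16 in R 4.3.3: its quasi-likelihood F test, a design with 3 group coefficients fitted to the 10 libraries together, TMM factors, filterByExpr (minimum count 10, minimum total 15) and Benjamini-Hochberg adjustment over 13909 genes, with a threshold of 0.05. The guides had a fit with 4 coefficients. The list means used log2 CPM with a prior count of 2. Alternatives used DESeq2 1.42.0, limma 3.58.1, other scalings and filters, fewer groups, and each liver left out. No pair of libraries in a group agreed within counting noise. Gene positions, transcript lengths and shared windows come from GENCODE on GRCm38, matched by symbol. The steps were tested on simulated counts.

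The members and gene lists were chosen with earlier results of these data known. Values in every liver are given for members past the threshold in any comparison and for named regulators, ketone genes and duplicated genes. The ketone, peroxisomal, mitochondrial and regulator lists outside the members are named by the smallest adjusted p with age, and Hsd17b4, Rxra and Ppargc1a whatever their result. Some genes of these lists are not reported here and are left out of the lists' counts. The marker genes Trac and Ighm were not analysed here, nor were protein sequences.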

Additional observations from a re-analysis of the deposited data

Results flagged for a closer look

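Knockout liver 4, which received guide 2, stood low and apart from the other 3 knockout livers in 4 members and in 2 set means. The gap between it and the nearest other liver, as a share of the whole range of the 4 livers, was 0.991 for Acaa1b, 0.92 for Cpt1a, 0.866 for Eci2 and 0.838 for Ppara. It was 0.932 for the mean of the 39 members and 0.839 for the mean of the peroxisomal set. Each lies above Dixon's critical value at 95% for 4 samples. Of 44 values examined in the knockout group 6 passed, where chance alone gives about 2.2, and the members are not independent of each other within a liver.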

How the results depend on the processing

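No named gene past the threshold changed sign in any alternative. Of the members not past it, 11 changed sign with age and 16 between knockout and young livers under total-count scaling, where 16 rather than 32 of 39 were lower in the second, and the calls over all genes with age turned from 1967 higher and 1205 lower to 1609 and 2259 under the GC and length correction. The count of members past the threshold with age, 10, became 5 with only the compared groups fitted, 5 with total-count scaling and 16 with the correction for GC content and length, and lay between 1 and 21 with 1 liver omitted at a time. The count of all genes with age, 3172, became 1192 with only the compared groups fitted and ranged from 396 to 5327 without single livers. For knockout against old control livers, the 0 genes became 8 with DESeq2 and 3 with guide 2 alone, and 0 to 3 without single livers; no member passed in any of 16 alternatives. For knockout against young livers, 1614 genes became 2803 with DESeq2, 969 with limma voom, 4223 with only the compared groups, 677 with guide 2 alone, 36 with guide 4 alone, 3585 with total-count scaling and 2449 with the GC and length correction, and 56 to 1652 without single livers. The 4 members of that comparison became 10 with DESeq2, 12 with only the compared groups, 0 with guide 4 alone, 1 with total-count scaling, 9 with the GC and length correction and 0 to 4 without single livers. Between guides, 3 genes became 10 with no filter on low counts, 73 with DESeq2 and 36 with only the compared groups, and no member passed in any of 7 alternatives. The causes of these moves were not tested, and some settings also use fewer libraries. Total-count scaling and the GC and length correction were chosen after seeing the data. Where a guide keeps 1 liver, leaving it out was not run. Depth sets the smallest amount detected, and its part in calls of genes with few counts was not tested. No paired analysis was possible because livers carry no replicate number in the labels.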
